A study of Arabidopsis thaliana with 3 samples.

Results

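The auxin genes examined here are 47 loci of *Arabidopsis thaliana* that control the level, movement and perception of the hormone auxin. They were chosen by TAIR10 locus identifier from families of the auxin pathway, by a rule that uses no peak value but was written with earlier results of these data known, and comprise 29 Aux/IAA genes, 9 transport genes (7 PIN genes, AUX1 and PID), 5 GH3 genes and 4 YUC genes. They are 47 of the 27444 protein-coding genes annotated on chromosomes 1 to 5. All 47 loci were found in the annotation, with these names as symbols or synonyms. Chromatin immunoprecipitation followed by sequencing (ChIP-seq) had been carried out with a Myc antibody in 13-day-old seedlings, grown in long days on sucrose-containing medium. The 2 AIPP3-4Myc libraries, replicate 1 (described as IP_a39) and replicate 2 (IP_a1114), came from plants carrying AIPP3 fused to Myc. The third library, from untagged Col-0, gave the background of the antibody. All 3 libraries are of the Col-0 ecotype. Per the study's methods the tagged genomic constructs were driven by their native promoter and transformed into the corresponding mutant, and T3 plants were analysed, so tagged and untagged plants can differ in more than the tag. What the codes a39 and a1114 stand for, and whether they mark separate transgenic lines, was not given in the sources used here.

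Auxin acts by removing repressors. In its absence Aux/IAA proteins bind auxin response factors (ARFs) and keep their target genes silent, together with TOPLESS co-repressors. Auxin joins Aux/IAA proteins to the F-box receptors TIR1 and AFB, and the repressors are degraded. The hormone is made by TAA aminotransferases followed by YUC flavin monooxygenases, moved between cells by AUX1-type influx and PIN efflux carriers, and inactivated when GH3 enzymes join it to amino acids. AIPP3 carries a BAH domain that the study examined as a reader of H3K27me3, the repressive histone mark laid down by Polycomb repressive complex 2.

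AIPP3-4Myc peaks were found at 6 of the 47 auxin genes, namely PIN3, PIN4, PID, GH3.1, YUC6 and IAA2. A gene was called bound in a library when a peak overlapped, by at least 1 bp, the region from 1 kb upstream of its transcription start site (TSS) to its transcription termination site (TTS). In replicate 1 all 6 genes (12.8%) were bound, where 5.11% of all protein-coding genes were bound. In replicate 2 the bound genes were PIN4, GH3.1 and YUC6 (6.38%), against 2.28% of all protein-coding genes. These 3 genes were therefore also the ones bound in both replicates, against 1.67% of all protein-coding genes. The 6 genes bound in either replicate compare with a background of 5.72%. No auxin gene was bound in Col-0, where 0.0547% of all protein-coding genes were bound. The members had been proposed with earlier results of these data known, so these shares are a description of the lists and no test was made on them. With 2 tagged libraries and 1 untagged library an exact permutation of the libraries cannot give a p-value below 0.333, so the genotypes were not tested against each other either.

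The counts by family were small. Over all protein-coding genes 5.11% were bound in replicate 1 and 1.67% in both replicates. Of the transport genes 3 of 9 were bound in replicate 1 and 1 of 9 in both replicates. Of the GH3 genes 1 of 5 and of the YUC genes 1 of 4 were bound, each in both replicates. Of the Aux/IAA genes, the largest family, 1 of 29 (3.45%) was bound in replicate 1 and 0 of 29 in replicate 2. The Aux/IAA count was near the background share, the counts of the other families rest on 1 to 3 genes each, and a difference between families was not tested.

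**Figure D1:**
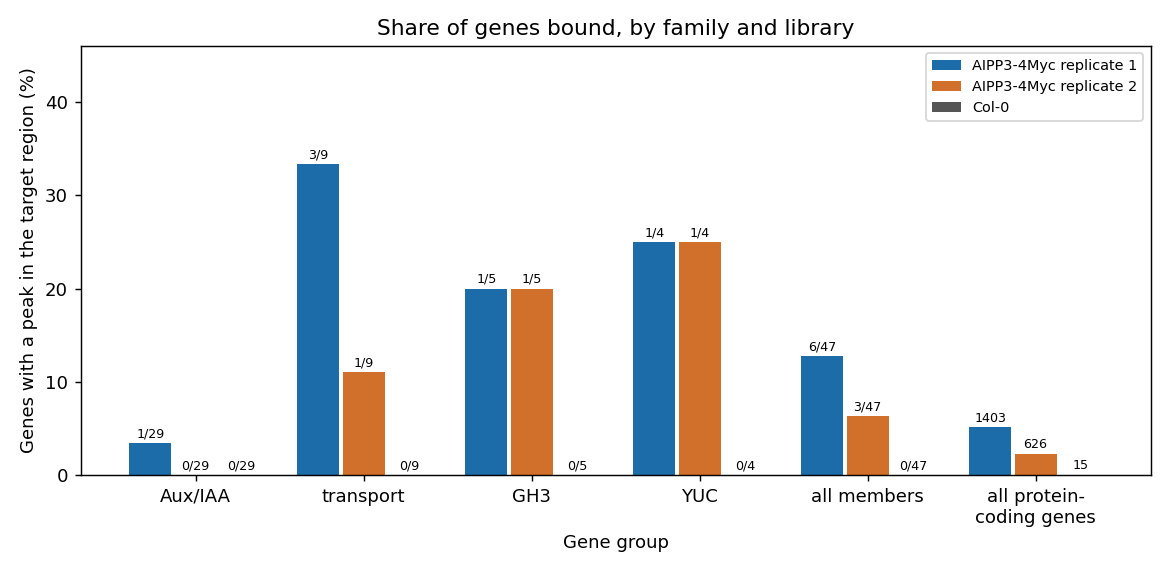
Percentage of genes with a peak in the target region (vertical axis) for each auxin gene family, for all 47 members and for all protein-coding genes (horizontal axis), with 1 bar for each of the 3 libraries and the number of bound genes above each bar. Transport genes reach 33.3% in replicate 1 (3 of 9) and Aux/IAA genes 3.45% (1 of 29), and every Col-0 bar of the auxin families is at 0.

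The peaks are described by their score, which MACS gives as 10 times the log10 of the inverse of a peak's p-value, so that 50 equals a p-value of 1e-05. The lowest score on the nuclear chromosomes was 50.01 in replicate 1 and 50.06 in replicate 2. Scores grow with sequencing depth, which is unknown for all 3 libraries, so they were ranked within a list and not compared between lists. A gene without a peak did not pass the threshold in that library, and this is not a measurement of absent binding.

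At PIN4 (AT2G01420, chromosome 2, 180033 to 183764, minus strand), which encodes a PIN efflux carrier best known from the root meristem, both replicates had a peak over the same part of the gene. The peak of replicate 1 lay at 181748 to 183545 and scored 76.56, rank 415 of 926 nuclear peaks. The peak of replicate 2 lay at 181765 to 183467 and scored 50.37, rank 425 of 430, close to the lowest score of that list. The peaks began 219 bp and 297 bp downstream of the TSS and ended 2016 bp and 1999 bp downstream of it. They shared 1703 bp, which is 94.7% of the replicate 1 peak and 100% of the replicate 2 peak. Coding sequence made up 72% of the replicate 1 peak and introns 8.73%. Both peaks also touched the upstream region of AT2G01422, a non-coding RNA gene on the plus strand at 183940 to 184734, so the assignment to PIN4 rests on the overlap with its gene body.

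At GH3.1 (AT2G14960, chromosome 2, 6451319 to 6453797, minus strand), a member of the family of amido synthetases that conjugate auxin, the replicates placed their peaks differently. The peak of replicate 1 lay at 6452288 to 6453695 and scored 84.15 (rank 348 of 926) and ran from 102 bp to 1509 bp downstream of the TSS. The peak of replicate 2 lay at 6453058 to 6454163 and scored 68.54 (rank 248 of 430). It reached from 366 bp upstream to 739 bp downstream of the TSS. GH3.1 had the highest rank of the auxin genes in the replicate 2 list. The shared part was 638 bp, or 45.3% of the replicate 1 peak and 57.7% of the replicate 2 peak. Upstream sequence made up 33.1% of the replicate 2 peak and none of the replicate 1 peak. No other gene's target region was touched.

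At YUC6 (AT5G25620, chromosome 5, 8934941 to 8938768, minus strand), which encodes a flavin monooxygenase of auxin synthesis, both peaks lay in the 5′ part of the gene. The peak of replicate 1 lay at 8937304 to 8938542 and scored 89.02 (rank 305 of 926). The peak of replicate 2 lay at 8937280 to 8938252 and scored 55.08 (rank 347 of 430). They ran from 226 bp to 1464 bp and from 516 bp to 1488 bp downstream of the TSS and shared 949 bp. The shared part was 76.6% of the replicate 1 peak and 97.5% of the replicate 2 peak. Coding sequence made up 55.7% and 70.9% of these peaks, and no other gene was touched.

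To show the DNA under the peaks that both replicates called, the stretch of 300 bp without untranslated sequence that held most motif matches within each shared interval is given for PIN4, GH3.1 and YUC6. The sequences are from the RefSeq TAIR10.1 assembly, written 5′ to 3′ along the gene's own strand (minus for these 3 genes). Capitals mark matches to GAGAGA or to the auxin response element TGTCTC on either strand, so GAGAGA can also read as TCTCTC. Overlapping matches of 1 motif were counted separately. The PIN4 stretch (chr2:182587-182886, 878 bp to 1177 bp downstream of the TSS) is coding sequence and held 3 GAGAGA matches. The GH3.1 stretch (chr2:6453226-6453525, 272 bp to 571 bp downstream) holds 205 coding bases and 95 intron bases, with 1 GAGAGA match. The YUC6 stretch (chr5:8937908-8938207, 561 bp to 860 bp downstream) is coding sequence with 4 GAGAGA matches. None of them held TGTCTC. Of the central windows of 300 bp of all 926 replicate 1 peaks, 34.3% held GAGAGA and 20.4% held TGTCTC. The stretches printed were picked for their matches, so their counts are not a comparison with these shares.
PIN4: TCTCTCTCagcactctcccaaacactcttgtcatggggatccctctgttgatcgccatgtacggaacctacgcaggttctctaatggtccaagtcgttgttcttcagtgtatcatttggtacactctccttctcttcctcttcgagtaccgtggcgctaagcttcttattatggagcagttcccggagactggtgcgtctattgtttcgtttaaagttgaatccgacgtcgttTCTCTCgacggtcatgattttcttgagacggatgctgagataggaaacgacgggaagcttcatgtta
GH3.1: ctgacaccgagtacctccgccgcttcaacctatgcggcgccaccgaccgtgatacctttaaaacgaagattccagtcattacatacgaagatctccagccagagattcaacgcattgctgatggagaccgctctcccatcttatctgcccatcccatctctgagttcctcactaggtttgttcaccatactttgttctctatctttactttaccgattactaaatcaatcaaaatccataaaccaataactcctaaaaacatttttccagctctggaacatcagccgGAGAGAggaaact
YUC6: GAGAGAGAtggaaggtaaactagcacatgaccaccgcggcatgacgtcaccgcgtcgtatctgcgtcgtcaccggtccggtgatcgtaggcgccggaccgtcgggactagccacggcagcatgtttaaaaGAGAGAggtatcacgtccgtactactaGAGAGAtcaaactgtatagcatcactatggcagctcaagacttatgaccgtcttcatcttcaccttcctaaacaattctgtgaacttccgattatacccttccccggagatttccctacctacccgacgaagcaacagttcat

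The remaining 3 bound genes had a peak in replicate 1 alone. At PIN3 (AT1G70940, chromosome 1, 26742940 to 26746469, plus strand), an efflux carrier known for its part in tropic growth, the peak lay at 26743022 to 26744859 and scored 90.12 (rank 299 of 926). This was the highest replicate 1 score among the auxin genes, yet the nearest replicate 2 peak lay 316.7 kb from the target region. At PID (AT2G34650, chromosome 2, 14589736 to 14592140, minus strand), which encodes the PINOID kinase that phosphorylates PIN proteins, the peak lay at 14589757 to 14592053 and scored 60.84 (rank 669). It covered 95.5% of the gene, and the nearest replicate 2 peak was 144.3 kb away.

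At IAA2 (AT3G23030, chromosome 3, 8180646 to 8182095, minus strand), an early auxin-induced Aux/IAA gene, the peak lay at 8180420 to 8182147 and scored 51.21 (rank 891). It covered 100% of the gene and ran 226 bp past the TTS. It also overlapped the upstream region of AT3G23020, a gene for a tetratricopeptide repeat protein. That upstream region reaches into the IAA2 gene itself. The nearest replicate 2 peak was 193.0 kb away. The replicate 1 scores of the genes found in both replicates ran from 76.56 to 89.02. Of the genes found in replicate 1 alone, IAA2 (51.21) and PID (60.84) scored below that range and PIN3 (90.12) above it.

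**Figure D2:**
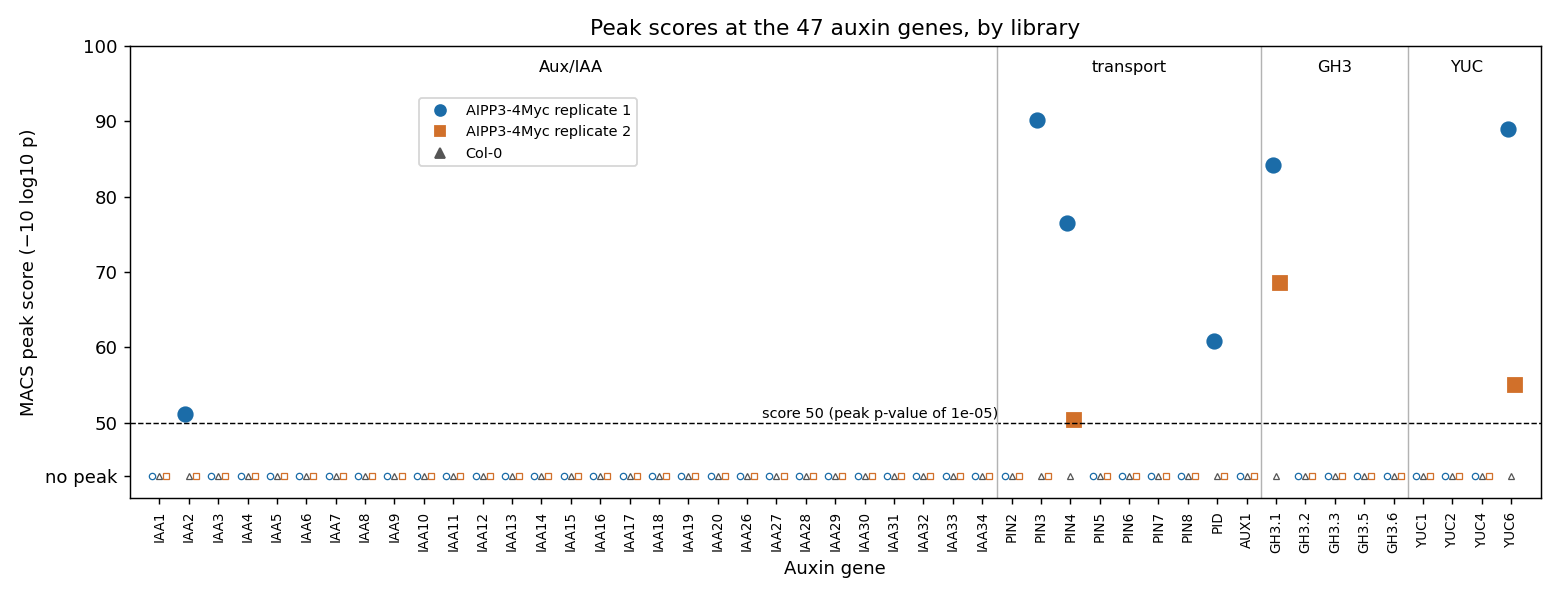
MACS peak score (vertical axis, 10 times the log10 of the inverse of a peak's p-value) at each of the 47 auxin genes (horizontal axis, grouped by family) in replicate 1 (circles), replicate 2 (squares) and Col-0 (triangles), with small open symbols at "no peak" for libraries without a peak there. All 9 peaks score below 100, from 51.21 (IAA2) to 90.12 (PIN3) in replicate 1 and from 50.37 (PIN4) to 68.54 (GH3.1) in replicate 2. No Col-0 symbol lies above "no peak".

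The auxin genes were not among the highest scoring peaks of either list. In replicate 1 their 6 scores ran from 51.21 to 90.12 with a median of 80.4, beside a median of 72.7 over all 926 nuclear peaks, and 4 of the 6 lay above that median. In replicate 2 their 3 scores ran from 50.37 to 68.54 with a median of 55.1, and 0 of the 3 lay above the median of 74.3 over 430 nuclear peaks. A score of at least 100 was reached by 240 replicate 1 peaks and 119 replicate 2 peaks, and by no peak at any of the 47 genes. With that stricter score 1.31% of all protein-coding genes remained bound in replicate 1, 0.685% in replicate 2 and 0.496% in both, and the count of auxin genes was 0 in each. Every call at an auxin gene therefore depends on peaks between the score of 50 and the score of 100.

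**Figure D3:**
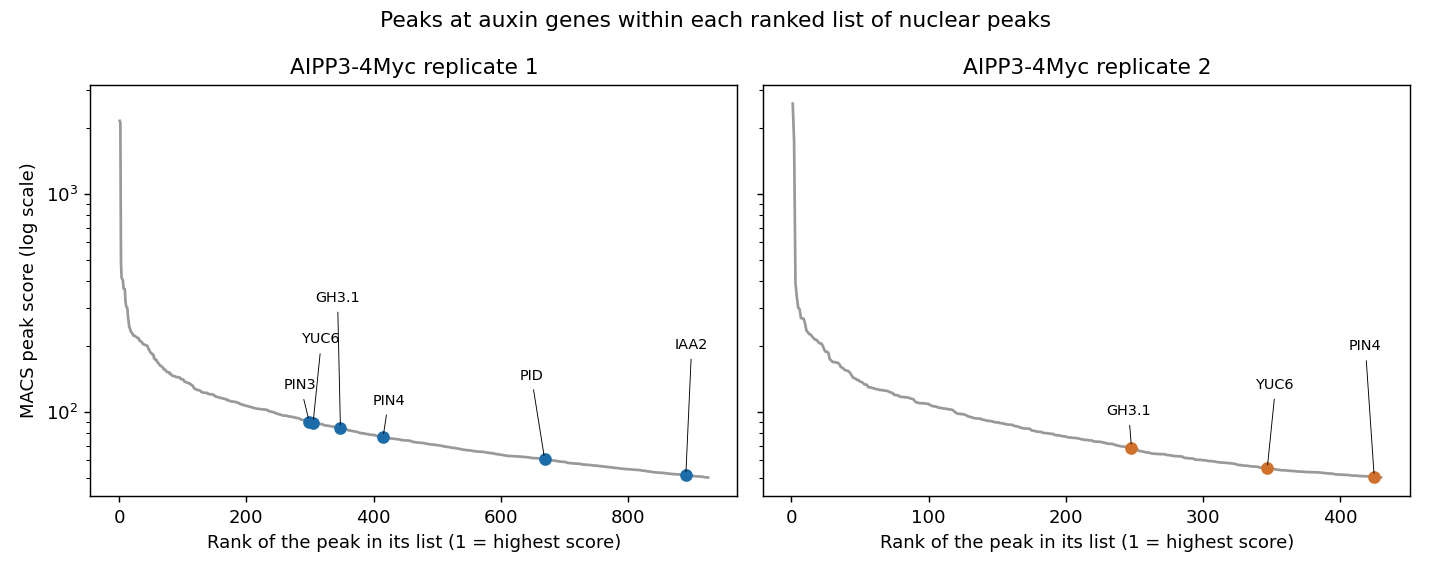
MACS peak score (vertical axis, log scale) against the rank of each nuclear peak within its list (horizontal axis, 1 is the highest score) for replicate 1 (left, 926 peaks) and replicate 2 (right, 430 peaks), with the peaks at auxin genes as labelled points on the grey curve of all peaks. In replicate 1 the points run from rank 299 (PIN3) to rank 891 (IAA2), and in replicate 2 from rank 248 (GH3.1) to rank 425 (PIN4).

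Agreement between the replicates at the auxin genes was set beside that of all genes. Of the auxin genes bound in replicate 1, 50% (3 of 6) were bound in replicate 2, and of those bound in replicate 2, 100% (3 of 3) were bound in replicate 1. Over all protein-coding genes these shares were 32.7% (459 of 1403) and 73.3% (459 of 626). None of the 9 peaks at auxin genes overlapped a Col-0 peak, and the nearest Col-0 peak to any of the 47 target regions lay 106.4 kb away, at IAA32 (AT2G01200). Such overlap was rare over all genes too, as Col-0 had only 16 nuclear peaks. Without the peaks that overlapped Col-0, the share of protein-coding genes bound went from 5.11% to 5.08% in replicate 1. In replicate 2 it went from 2.28% to 2.24%. The lack of overlap is therefore not particular to the auxin genes. Chromosome 4, which carries 9 of the 47 genes, had no Col-0 peak.

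The position of the peaks along the gene was similar among the replicate 1 peaks and not among those of replicate 2. The binding rule itself uses where a peak lies relative to the TSS and TTS, so position is not independent of the calls. In replicate 1 the 5′ edges of the 6 peaks lay between 52 bp upstream and 226 bp downstream of the TSS, and the 3′ edges between 1464 bp and 2383 bp downstream. Every one of the 6 peaks thus covered the stretch from 226 bp to 1464 bp downstream of the TSS. Its limits were taken from these same peaks and are the edges of the YUC6 peak. At IAA2, a gene of 1450 bp, the stretch runs past the TTS. How many other bound genes had a peak over it was not computed. For 6 of 6 genes the 5′ edge was within 300 bp of the TSS. Of the 860 protein-coding genes whose bound target region had a replicate 1 peak midpoint inside the gene body, 613 (71.3%) had such an edge. Relative to the TSS, the median 5′ edge was at 94.5 bp for the auxin genes and at -115.0 bp, that is upstream, for those 860 genes. In replicate 2 the edges were less uniform, from 366 bp upstream at GH3.1 to 516 bp downstream at YUC6, and 1 of 3 (33.3%) lay within 300 bp, beside 326 of 418 protein-coding genes (78%). The shares of auxin genes thus lay above that of all genes in replicate 1 and below it in replicate 2, on few genes in both, and were not tested. The TSS used is the outermost annotated start of each gene, so a shorter isoform would shift these distances.

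**Figure D4:**
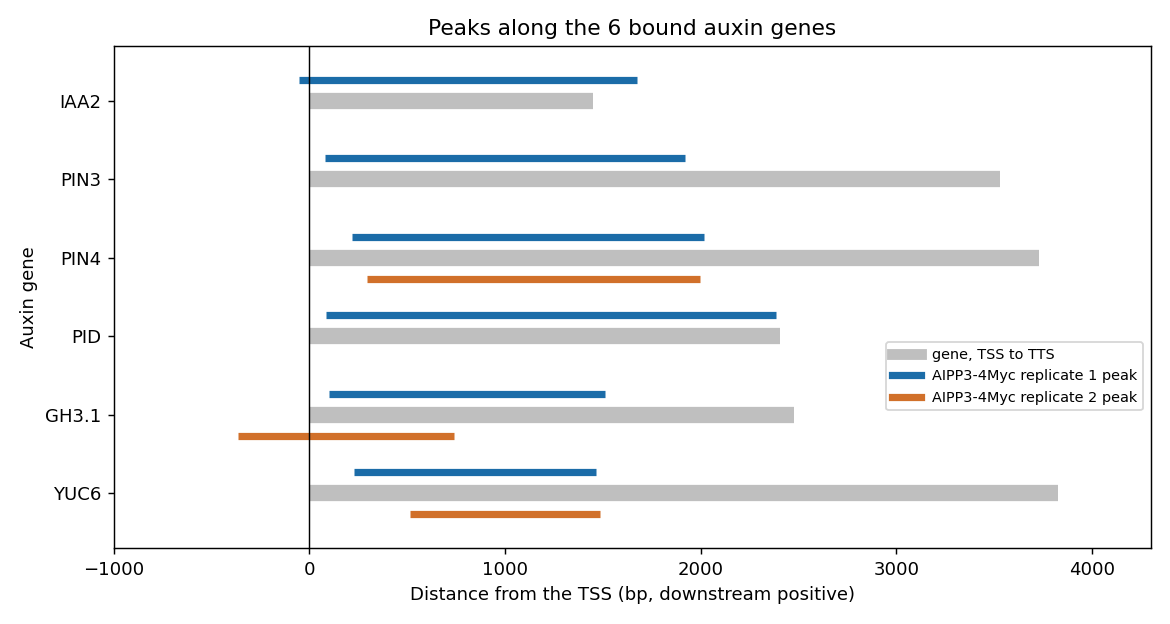
Extent of each peak relative to the TSS (horizontal axis, bp, downstream positive) for the 6 bound auxin genes (vertical axis), with the gene from TSS to TTS in grey, replicate 1 peaks in blue and replicate 2 peaks in orange. The 6 replicate 1 peaks all cover the stretch from 226 bp to 1464 bp, whose limits are the edges of the YUC6 peak. At GH3.1 the replicate 2 peak is displaced toward the upstream region, reaching 366 bp before the TSS.

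The extent of the gene under the peak varied. The replicate 1 peaks covered from 32.4% (YUC6) to 100% (IAA2) of the gene, with a median of 54.4%, beside a median of 91.7% over the 860 genes above. The 6 bound genes ranged from 1450 bp (IAA2) to 3828 bp (YUC6) with a median length of 3004 bp, against 2172 bp for the 41 auxin genes without a peak and 2078 bp for all protein-coding genes. Protein-coding genes bound in replicate 1 had a median length of 1938 bp, and those bound in both replicates 1915 bp. The bound auxin genes were thus longer than bound genes in general, which bears on the share of the gene covered. Members also differ in length by family, with medians of 1740 bp for Aux/IAA and 3530 bp for transport genes, so family and length cannot be told apart among the members. Over all protein-coding genes the share bound in replicate 1 was 4.09% up to 1000 bp, 6.52% for 1000 to 2000 bp, 5.36% for 2000 to 3000 bp, 3.8% for 3000 to 4000 bp and 3.73% above 4000 bp. The auxin genes bound in replicate 1 in the same classes were 0 of 1, 1 of 17, 2 of 20, 3 of 6 and 0 of 3, so the longest members, PIN2, AUX1 and PIN6, had no peak.

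The base composition and motifs under the peaks were then described. The GC content of the replicate 1 peaks ran from 36.4% at IAA2 to 48.4% at PIN3 and was 43.3% over all 6, beside 40.3% over all replicate 1 peaks. In replicate 2 it was 43% over the 3 peaks, beside 41.2%. The GAGAGA motif occurred in all 9 peaks, and 90% of all replicate 1 peaks and 88.8% of all replicate 2 peaks held it. Its density was 3.2 per kb at the auxin genes and 2.09 per kb over all replicate 1 peaks. In replicate 2 these densities were 3.44 and 2.14 per kb. The replicate 2 peaks at auxin genes lay mostly on the same DNA as those of replicate 1, so their matches are not a separate set. YUC6 had the highest density, with 9 matches in its replicate 1 peak (7.26 per kb), and GH3.1 the lowest in replicate 1, with 1 match (0.71 per kb). Peaks are few here and differ in width, and these values were not tested.

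The auxin response element TGTCTC, the sequence recognised by ARFs, occurred in 66.7% of the peaks at auxin genes in each replicate, beside 66.5% of all replicate 1 peaks and 67.9% of all replicate 2 peaks. It occurred at 0.485 per kb in the replicate 1 peaks at auxin genes and at 0.685 per kb over all replicate 1 peaks. In replicate 2, where the peaks at auxin genes lay mostly on the same DNA, these densities were 0.529 and 0.704 per kb. The peaks at PIN3 and YUC6 held none, those at PIN4, PID and GH3.1 held 1 each in replicate 1, and that at IAA2 held 2. The only TGTCTC match that overlapped a GAGAGA match was in the replicate 2 peak at GH3.1.

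The element was also searched upstream of the TSS. In the 300 bp before the TSS, 16 of the 47 auxin genes (34%) held TGTCTC, beside 13% of all protein-coding genes. These 16 were 11 Aux/IAA genes, 3 GH3 genes, 1 YUC gene (YUC2) and 1 transport gene (PIN2), and none of the 6 bound genes was among them. Of all protein-coding genes bound in replicate 1, 11% held it, so that 0 of 6 is near the background. Most of the 16 are Aux/IAA genes, of which 1 of 29 was bound, and the motif and the family cannot be told apart among the members. GAGAGA was found there in 13 of the 47 auxin genes (27.7%), beside 23.6% of all protein-coding genes, and in 0 of the 6 bound genes, beside 19.5% of all protein-coding genes bound in replicate 1. A match is a description of these letters, and a window without them says nothing of which factors bind there.

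Of these windows, IAA19 (AT3G15540) held the most, 3 TGTCTC matches, and is shown with the window of GH3.1, the bound gene whose replicate 2 peak covered the whole stretch. The IAA19 window (chr3:5263701-5264000, plus strand) ends 1 bp before the TSS. Its leftmost TGTCTC overlaps a TCTCTC. The GH3.1 window (chr2:6453798-6454097, minus strand) also ends 1 bp before the TSS and held neither motif. Capitals are as above. IAA19, an Aux/IAA gene of hypocotyl growth, was not bound, and its nearest peaks were 21.4 kb away in replicate 1 and 26.8 kb away in replicate 2.
IAA19: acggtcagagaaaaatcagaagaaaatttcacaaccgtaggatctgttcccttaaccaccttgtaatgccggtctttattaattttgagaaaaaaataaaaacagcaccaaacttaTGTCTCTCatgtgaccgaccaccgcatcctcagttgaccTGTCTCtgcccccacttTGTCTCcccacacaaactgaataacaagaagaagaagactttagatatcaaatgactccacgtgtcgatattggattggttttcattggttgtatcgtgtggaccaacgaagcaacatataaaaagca
GH3.1: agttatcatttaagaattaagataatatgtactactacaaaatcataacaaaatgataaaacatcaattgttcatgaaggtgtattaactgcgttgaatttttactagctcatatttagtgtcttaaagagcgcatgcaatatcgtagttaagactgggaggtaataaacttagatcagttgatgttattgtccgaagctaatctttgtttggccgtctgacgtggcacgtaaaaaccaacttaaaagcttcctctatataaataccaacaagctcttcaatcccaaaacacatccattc

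For the 41 auxin genes without a peak, the distance to the nearest one is given. The same distance was not computed for other genes, so it cannot be read as particular to the auxin genes. Their nearest replicate 1 peak lay a median of 38.9 kb from the target region, from 1.81 kb to 194.4 kb. The 44 genes not bound in replicate 2 had a median of 93.1 kb in that library, from 17.8 kb to 619.0 kb. Only GH3.2 (AT4G37390), another auxin-conjugating enzyme, had a peak within 2 kb, at 1.81 kb in replicate 1. Chosen after their values were seen, the others within 5 kb in replicate 1 were IAA12 (AT1G04550, BODENLOS, a repressor of embryonic root formation) at 2.44 kb, IAA26 (AT3G16500) at 3.37 kb and IAA29 (AT4G32280) at 4.57 kb.

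The 28 Aux/IAA genes without a replicate 1 peak had a median distance of 31.6 kb, from IAA12 to IAA13 (AT2G33310) at 194.4 kb. Named in addition to the rule, with their values known, they include SHY2 (IAA3, AT1G04240) and AXR3 (IAA17, AT1G04250), which are neighbours on chromosome 1 and were 22 kb and 29 kb from a replicate 1 peak. In both replicates the transport genes PIN2, PIN5, PIN6, PIN7, PIN8 and AUX1 (AT2G38120), the influx carrier, had no peak, and their replicate 1 distances ran from 25.1 kb at PIN2 to 117.6 kb at PIN6. For the remaining members of the small families the same distances follow. The unbound GH3 genes GH3.3, GH3.5 and GH3.6 lay 70.3 kb, 44.3 kb and 92.8 kb from a replicate 1 peak. For YUC1, YUC2 and YUC4 these distances were 108.5 kb, 59.6 kb and 59.3 kb. Within the PIN, GH3 and YUC families, some members had a listed peak and others did not.

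Other genes of the pathway were looked up in the same way. Of 133 further auxin genes, 4 (3.01%) were bound in replicate 1, 1 (0.752%) in replicate 2, 0 in both and 0 in Col-0, and the background shares are those given for all protein-coding genes above. The receptor genes TIR1 and AFB1 to AFB5 (0 of 6), the TOPLESS co-repressor genes (0 of 5), the ABCB transporter genes (0 of 3), the TAA aminotransferase genes (0 of 3) and the further GH3 genes (0 of 3) had no peak in any library. Of the ARF genes 1 of 23 was bound in replicate 1, and of the SAUR genes, a large family of early auxin-induced growth genes, 2 of 80. Of the further YUC genes 1 of 7 was bound in replicate 1. Of the LAX influx carrier genes 1 of 3 was bound in replicate 2, by a peak that lay almost wholly beyond the TTS.

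The genes concerned were few and none was bound in both replicates. ARF10 (AT2G28350), an ARF of the microRNA-targeted repressor clade, had a replicate 1 peak with a score of 60.89 from 86 bp to 1552 bp downstream of the TSS. YUC9 (AT1G04180), a paralogue of YUC6, had one with a score of 78.51 from 466 bp upstream to 1632 bp downstream. The SAUR genes were SAUR9 (AT4G36110), with a score of 65.98, and AT2G35290, with peaks of 79.17 and 107.47. LAX2 (AT2G21050), an influx carrier related to AUX1, had a replicate 2 peak with a score of 50.52. It ran from 2564 bp to 3799 bp downstream of the TSS of a gene of 2581 bp. The peak thus touched only the last bases of LAX2, and nearly all of it lay beyond the TTS. These 5 genes fall outside the rule for naming and were named after their values were seen.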

How the data were processed

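ChIP-seq peak lists of 2 AIPP3-4Myc libraries and 1 Col-0 library were analysed. The authors aligned reads to TAIR10 with Bowtie2 (version 2.2.8) and called peaks with MACS (version 1.4), both with default settings, with 1 list per library. The deposited value of each peak is its MACS score. Whether MACS was given a control library is not stated, and the read number is unknown, so no depth could be set beside a value. Nuclear peaks numbered 926 in replicate 1, 430 in replicate 2 and 16 in Col-0, and organelle peaks were not used.

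Gene models and sequence came from the RefSeq copy of TAIR10.1, whose chromosomes 1 to 5 held every nuclear peak end. Deposited starts were shifted by 1 bp to 1-based coordinates. Motifs were searched on both strands. Members, gene lists and the motifs were chosen with earlier results of these data known. Named genes were every member bound in any library and every unbound member with a peak within 2 kb. Genes of the further lists were to be named when bound in both replicates. No test was made. The labels do not state whether the AIPP3-4Myc replicates are separate plants. 1 locus of the list is not reported here and enters no count of members. A planned search for the degron core of Aux/IAA proteins was not run. The binding rule was tested on planted peaks (100% recovered over 27444 genes). Python 3.11.15 and matplotlib 3.10.9 were used. Alternatives were a score of at least 100, an overlap of at least 200 bp, gene bodies only, 1 kb around the TSS, peak midpoints, the nearest TSS, removal of peaks overlapping Col-0 and leaving out each replicate.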

Additional observations from a re-analysis of the deposited data

How the results depend on the processing

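The count of bound auxin genes depended on the score threshold. With a score of at least 100 it fell from 6 to 0 in replicate 1 and in either replicate, and from 3 to 0 in replicate 2 and in both replicates. The counts of transport, GH3 and YUC genes bound in both replicates, 1 each, also became 0 with that score. Leaving out each AIPP3-4Myc replicate gave from 3 (without replicate 1) to 6 (without replicate 2) bound genes, both for the count in both replicates and for the count in either. Of the 62 alternatives other than leaving out a replicate, 55 kept their count within 1.5 times and 7 did not, and these 7 are the values of 0 above. The 55 include the Col-0 counts and the Aux/IAA counts in both replicates, which were 0 and stayed 0. The other counts share the same genes, so the 55 are not separate checks. Removing peaks that overlap Col-0 could not lower a count, because no peak at an auxin gene overlapped one. Under an overlap of 200 bp, gene bodies only, 1 kb around the TSS, peak midpoints, the nearest TSS and removal of peaks overlapping Col-0, the same 6 genes were bound in replicate 1 and the same 3 in replicate 2. No paired analysis was possible because the Col-0 group has 1 library and its label carries no replicate number. Unknown read depth and the peak threshold limit all counts.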
